A study of Rattus norvegicus with 17 samples.

Results

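Livers of 3 male rats given isopropylated phenol phosphate (IPP) at 305.5 mg/kg body weight per day were compared with livers of 5 male rats given its corn oil vehicle, which makes 8 of the 17 arrays of the study. IPP is a mixture of aryl phosphate esters used as a flame retardant and plasticizer. All rats were of the Harlan Sprague-Dawley stock and received either oil alone or IPP in oil by oral gavage once daily on 4 days, and liver was taken on day 5. The treated amount corresponds to 0.675 mmol/kg, and the treatment protocol rounds it to 306 mg/kg. The other rats, 3 at each amount, received 76.5, 153 or 611 mg/kg. The sources used here give neither the age of the rats nor the hour of necropsy. RNA came from 3 pieces of the left lobe, so each array measured a mixture of hepatocytes, endothelial, stellate and immune cells. Members of the comparison were chosen by the group in the array titles, and all 14217 genes with a probe set of a single symbol were tested.

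Hepatocytes meet foreign chemicals with the nuclear receptors CAR and PXR, which switch on genes for oxidation, conjugation and export, and with NRF2, which switches on glutathione and antioxidant genes. ATF4 drives amino acid and stress genes when translation is slowed. The liver also has a circadian clock, in which BMAL1 with CLOCK or NPAS2 activates genes such as Nr1d1, Per, Cry and Dbp, and the REV-ERB proteins made from Nr1d1 and Nr1d2 repress Bmal1 in turn.

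Array medians of the 8 rats lay between 6.35 and 6.40 on the deposited log2 scale, and the median correlation of each array with the other 16 lay between 0.991 and 0.992. The 3' minus 5' difference of the GAPDH control probe sets, which grows as RNA breaks down, had a mean of 1.37 ± 0.18 (SD, n = 5) in the vehicle rats. The treated rats had 1.17 ± 0.31 (SD, n = 3). The test did not separate the groups (two-sided exact permutation p = 0.268, adjusted over 2 controls p = 0.518), nor did it for beta-actin (p = 0.518). So few rats cannot show that the groups were alike in RNA quality. Treated rat 1 had a GAPDH value of 1.53, inside the vehicle range of 1.13 to 1.56. Treated rats 2 and 3 had 0.96 and 1.03, below every vehicle rat. For several genes below, treated rat 1 stood away from the other treated rats, and the part of RNA quality in this was not tested. None of 9 measured hepatocyte markers, such as Alb, Apob and Ttr, was called different. Their summed linear signal, which bright genes dominate, was 190403 to 193504 in vehicle and 188885 to 197294 in treated rats. The mean log2 value of these markers, minus the vehicle mean, was -0.02, 0.23 and 0.26 in treated rats. Vehicle rats lay between -0.03 and 0.07. The largest marker difference was 1.35, that of Tat, which is given below.

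Against vehicle, 107 genes (0.753% of 14217) rose and 209 (1.47%) fell at 305.5 mg/kg, by limma with a Benjamini-Hochberg adjusted p under 0.05. Of these 316 genes (2.22%), 27 were higher and 37 lower by at least 1 on the log2 scale, that is, by a factor of at least 2. The called differences started at 0.28 for rises and -0.29 for falls, while the median difference of all genes was 0.01. All 3 treated rats lay outside the range of the 5 vehicle rats for 105 of the higher and 208 of the lower genes. Over all genes they lay above it for 905 (6.37%) and below it for 1043 (7.34%), together 1948 (13.7%). The 3 exceptions, named after their values were seen, were Avpi1, Limk2 and Rbp7. The counts depended on single rats. Without treated rat 1, 2 or 3 the higher genes numbered 49, 56 and 49 and the lower genes 95, 86 and 102. Without vehicle rat 1 they were 68 and 136, and without vehicle rat 3 the lower genes numbered 120. Differences are given below as the log2 value at 305.5 mg/kg minus vehicle ± SE from the fit, with n = 3 and n = 5. Where the lower group mean was under log2 6, near background, the size is a lower bound. That applies to the rises of Dbp, Nr1d1 and Per3 and to the falls of Lox, Trim36, Lpl, Ccn2 and Abcg8.

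**Figure D1:**
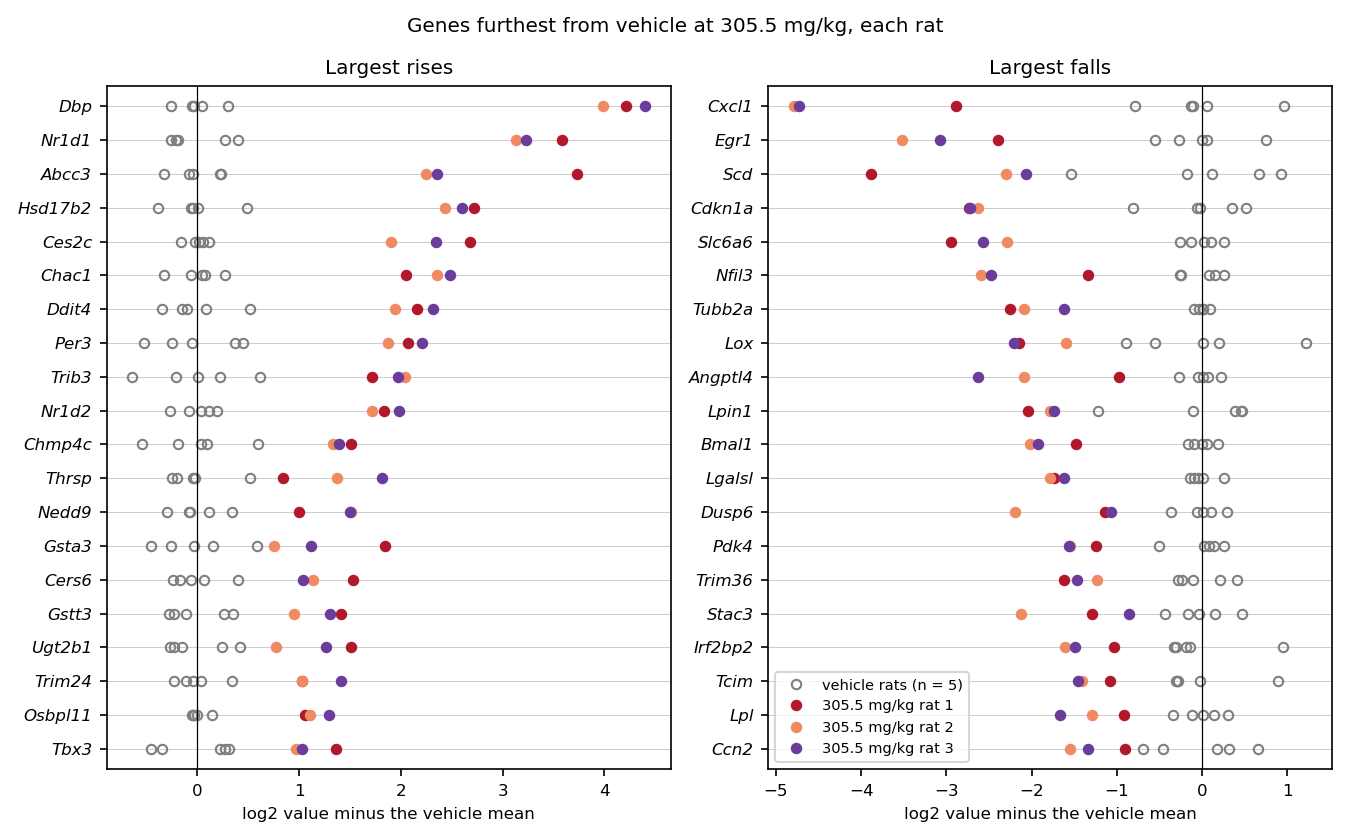
Log2 value of each rat minus the vehicle mean (horizontal axis) for the 20 largest rises and 20 largest falls among called genes with no treated rat inside the range of vehicle rats. Open circles are the 5 vehicle rats and filled circles the 3 treated rats, which the choice of genes keeps apart; treated rat 1 lies apart from the other 2 for Abcc3, Cxcl1, Scd and Nfil3.

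The largest 2 called rises were those of clock genes, and of 17 measured clock genes 6 were higher, 4 lower and 7 not called. As the hour of necropsy of each rat is unknown, time of day and dose cannot be told apart for these genes. The same limit holds for any gene below, outside this list too, whose level varies over the day. Dbp, which encodes a PAR bZIP transcription factor at the output of the clock, read 6.03, 5.94, 5.96, 5.72 and 6.29 in the vehicle rats and 10.20, 9.98 and 10.39 in the treated rats. It thus rose by 4.20 ± 0.38 (limma, Benjamini-Hochberg adjusted p = 1.11e-05), about 18.4-fold. Nr1d1, the gene of REV-ERB alpha, read 6.15, 5.66, 5.68, 5.61 and 6.27 in vehicle and 9.46, 9.01 and 9.11 in treated rats, a rise of 3.32 ± 0.22 (adjusted p = 1.5e-07). Its paralogue Nr1d2, the gene of REV-ERB beta, rose by 1.84 ± 0.12 (adjusted p = 1.5e-07), and Per3, a period gene, by 2.05 ± 0.28 (adjusted p = 0.000738). The groups did not overlap for any of these genes. Tef, a second PAR bZIP factor, rose by 0.84 ± 0.13 (adjusted p = 0.00172), from 8.36 to 8.57 in vehicle to 9.18 to 9.38. Cry2, a clock repressor, rose by 0.96 ± 0.22 (adjusted p = 0.0255); the call was lost without vehicle rat 1, 2 or 3 or any treated rat (adjusted p 0.0533 to 0.148), and its other probe set had the opposite sign. Tef and Cry2 lay outside the rule for named genes.

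Genes on the activating arm of the clock, and repressors that peak with it, were lower. Bmal1, whose protein is the partner of CLOCK, read 8.58, 8.52, 8.71, 8.43 and 8.36 in vehicle and 7.04, 6.50 and 6.59 in treated rats, and fell by 1.81 ± 0.26 (adjusted p = 0.00112). Npas2, which can replace CLOCK, fell by 1.15 ± 0.17 (adjusted p = 0.00156), and its vehicle range of 8.88 to 9.07 lay clear of the treated range of 7.74 to 7.88. Nfil3, a bZIP repressor that competes with DBP for its sites, read 10.28, 10.27, 10.67, 10.61 and 10.78 in vehicle and 9.19, 7.93 and 8.05 in treated rats. It fell by 2.13 ± 0.27 (adjusted p = 0.000383), with treated rat 1 nearest to vehicle. The repressor gene Cry1 fell by 1.21 ± 0.16 (adjusted p = 0.000735). Clock (-0.42 ± 0.13, adjusted p = 0.125) and Rora (-0.60 ± 0.21, adjusted p = 0.194), a receptor that activates Bmal1, were not called, although no treated rat reached the vehicle range. The remaining members, Per1, Per2, Hlf, Bhlhe40 and Bhlhe41, differed by -0.23 to 0.19. Dbp, Nr1d1, Nr1d2, Bmal1, Npas2, Nfil3 and Cry1 kept their calls in all 20 alternatives, and Per3 in the 19 run on it.

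**Figure D2:**
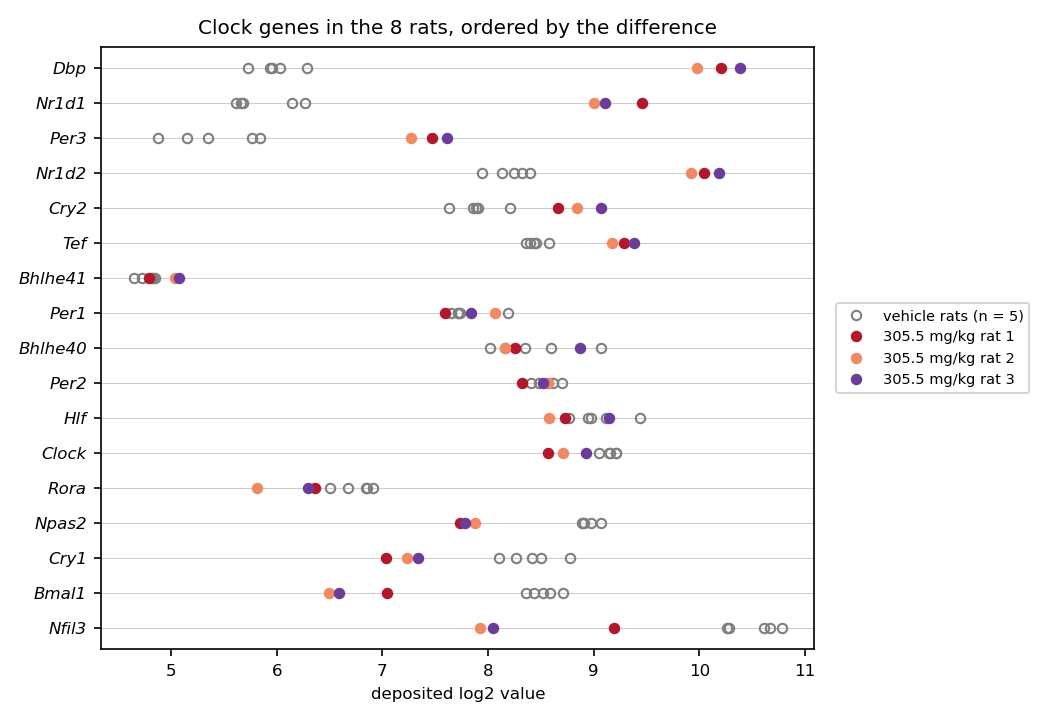
Deposited log2 values (horizontal axis) of the 17 measured clock genes in the 5 vehicle rats (open circles) and the 3 treated rats (filled circles), ordered by the difference. Dbp, Nr1d1, Per3 and Nr1d2 lie above vehicle and Npas2, Cry1, Bmal1 and Nfil3 below it with no overlap, while Per1 and Per2 overlap.

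The promoters of the called clock genes were searched for the E-box CACGTG, the letters bound by BMAL1 dimers, and for the D-box TTANNTAA, the letters bound by DBP and TEF, on both strands. Of 9 called members with a RefSeq promoter of 300 bases (250 before the start and 50 after it), 1 held the E-box and 0 the D-box, against 6.65% and 5.81% of 27457 rat promoters. The E-box lay in Tef, with its first base at -198 from the start, and is in capitals in the sequence printed here to show it in place (GRCr8, chr7:115206577-115206876, plus strand).
Tef: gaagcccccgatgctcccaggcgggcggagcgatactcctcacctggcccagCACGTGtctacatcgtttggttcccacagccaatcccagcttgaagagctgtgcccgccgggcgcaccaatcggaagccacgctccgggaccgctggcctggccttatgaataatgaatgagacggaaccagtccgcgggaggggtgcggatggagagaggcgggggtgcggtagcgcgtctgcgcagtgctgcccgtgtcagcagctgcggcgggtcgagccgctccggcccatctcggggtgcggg

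Targets of CAR and PXR formed the list with the most members called in 1 direction. The lists were chosen with earlier results of these data known, so their ranking is a description only. Of 18 measured members 9 were higher, 0 lower and 9 not called, with a median difference of 0.46 against 0.01 for all genes. The mean over the list lay above every vehicle rat in all 3 treated rats (0.51, 0.69 and 0.81 above the vehicle mean, with vehicle rats between -0.06 and 0.06). Ces2c, a carboxylesterase, read 8.98, 8.90, 8.76, 8.94 and 9.04 in vehicle and 11.60, 10.82 and 11.27 in treated rats, a rise of 2.31 ± 0.16 (adjusted p = 1.5e-07) or 5.0-fold. Abcc3, an exporter of organic anions and bile acids into blood, read 6.36, 6.92, 6.61, 6.92 and 6.66 in vehicle and 10.43, 8.94 and 9.05 in treated rats. Its rise of 2.78 ± 0.36 (adjusted p = 0.000548) was thus highest in treated rat 1, and the other treated rats also lay at least 2 above every vehicle rat. Ugt2b1, a glucuronosyltransferase, rose by 1.18 ± 0.17 (adjusted p = 0.00119), from a vehicle range of 12.20 to 12.89 to a treated range of 13.25 to 13.98.

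Among the other targets, Aldh1a1, a retinal dehydrogenase, rose by 0.97 ± 0.16 (adjusted p = 0.00347). Cyp3a23-3a1, a drug-oxidising cytochrome P450, rose by 0.92 ± 0.17 (adjusted p = 0.00635) from 12.52 to 13.56 in vehicle to 13.95 to 14.20. Abcc2, which exports conjugates into bile, rose by 0.51 ± 0.10 (adjusted p = 0.00888). Ephx1, the microsomal epoxide hydrolase, rose by 0.83 ± 0.17 (adjusted p = 0.0167), and Gstm1, a glutathione transferase, by 0.47 ± 0.10 (adjusted p = 0.0233). The ninth call was Cyp2c6v1 (0.31 ± 0.07, adjusted p = 0.0245), named after its values were seen. Abcc2 lost its call without treated rat 3 (adjusted p = 0.0558) and Ephx1 without any of the treated rats (adjusted p 0.051 to 0.0842). Gstm1 lost it without vehicle rat 2 or 3 or any treated rat (adjusted p 0.0501 to 0.108), and Cyp2c6v1 without vehicle rat 2, 3 or 5 or any treated rat (adjusted p 0.0502 to 0.12). Abcb1a, the P-glycoprotein gene, differed by 0.91 ± 0.25 and Por, the electron donor of cytochromes P450, by 0.45 ± 0.21, neither called (adjusted p = 0.0739 and 0.357). Alas1, which starts heme synthesis, differed by 0.38. Cyp3a2, Cyp3a9, Cyp3a18, Cyp2c7 and Sult2a1 lay between -0.10 and 0.18. Cyp2b1 and 5 other listed genes had no probe set of their own symbol and were not analysed here. Array probes may not separate close paralogues, so values of single Cyp, Ugt, Ces and Gst genes may include their relatives.

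Of 28 NRF2 and glutathione genes 7 were higher, 0 lower and 21 not called, and 26 of the 28 differences were above 0, with a median of 0.31. Gsta3, a glutathione transferase, read 7.97, 7.75, 8.16, 7.55 and 8.59 in vehicle and 9.85, 8.76 and 9.13 in treated rats. It rose by 1.24 ± 0.30 (adjusted p = 0.0394), with treated rat 2 just above the highest vehicle rat, and the call was lost without treated rat 1 or 3 or vehicle rat 1, 2, 3 or 4 (adjusted p 0.0652 to 0.251). Akr7a3, an aldehyde reductase, rose by 1.09 ± 0.27 (adjusted p = 0.0461) and lost its call without any of the 8 rats (adjusted p 0.065 to 0.234). Gstt1 rose by 0.51 ± 0.11 (adjusted p = 0.0159) and Gsta1 by 0.32 ± 0.07 (adjusted p = 0.0178), and both calls were lost without treated rat 1 or 3 (adjusted p 0.0664 to 0.118). Srxn1, which repairs oxidised peroxiredoxins, rose by 0.47 ± 0.11 (adjusted p = 0.0348), but 1 of its 2 other probe sets had the opposite sign and the call was lost without any of the 8 rats (adjusted p 0.0573 to 0.183). The other members called were Ephx1 and Gstm1, given above. Nqo1, Gclm, Gclc, Txnrd1 and Hmox1, which are widely used as NRF2 readouts, differed by 0.57, 0.34, -0.18, 0.03 and 0.00 and were not called. Gstt3, a theta class transferase that was not on the list, rose by 1.23 ± 0.22 (adjusted p = 0.00694), a call lost without treated rat 1 (adjusted p = 0.0509).

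The antioxidant response element was searched as TGACNNNGC on both strands. It lay in 2 of 6 promoters of the called members and in 12.2% of all promoters. Gsta1 and Gsta3, both on chromosome 9, held it, at +31 and -17 from the start. Both promoters are printed so that the elements, in capitals, can be compared (GRCr8, chr9:31216483-31216782, minus strand, and chr9:31154739-31155038, plus strand).
Gsta1: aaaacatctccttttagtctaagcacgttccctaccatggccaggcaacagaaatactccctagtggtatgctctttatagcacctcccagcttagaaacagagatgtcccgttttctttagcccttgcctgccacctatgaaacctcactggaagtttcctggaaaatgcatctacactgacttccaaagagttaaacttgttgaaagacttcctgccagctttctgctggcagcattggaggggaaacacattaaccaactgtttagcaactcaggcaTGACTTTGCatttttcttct
Gsta3: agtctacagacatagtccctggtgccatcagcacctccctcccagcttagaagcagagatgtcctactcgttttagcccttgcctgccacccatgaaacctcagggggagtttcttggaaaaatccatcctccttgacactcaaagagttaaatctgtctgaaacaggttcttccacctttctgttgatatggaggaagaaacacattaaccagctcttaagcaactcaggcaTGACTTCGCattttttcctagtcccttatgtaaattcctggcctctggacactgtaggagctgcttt

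Hsd17b2, which oxidises estradiol and testosterone to weaker steroids, read 10.39, 10.37, 10.44, 10.05 and 10.92 in vehicle and 13.15, 12.87 and 13.04 in treated rats. The rise of 2.58 ± 0.32 (adjusted p = 0.000305), or 6.0-fold, was the only call among 18 hydroxysteroid dehydrogenase and reductase genes, whose median was 0.03. Aryl phosphates are known to react with serine esterases. Of 23 measured serine esterase genes Ces2c was the only one called, and the list median was 0.02. Nceh1, a cholesterol ester hydrolase, differed by 0.63 ± 0.27 (adjusted p = 0.304). The 3 paraoxonase genes, whose enzymes hydrolyse organophosphates, lay between -0.14 and 0.14 and none was called. None of 8 targets of the aryl hydrocarbon receptor was called, with Cyp1a1 at 0.40 ± 0.34 and Cyp1a2 at -0.29 ± 0.13. With 2.22% of all genes called, counts of 0 or 1 in lists of these sizes are close to the background.

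Of 22 hepatic transporter genes Abcc3 and Abcc2 were higher and 2 were lower, where 0.753% and 1.47% of all genes were. Slc6a6, the taurine transporter gene, read 10.31, 10.02, 10.16, 10.39 and 10.55 in vehicle and 7.33, 7.998 and 7.71 in treated rats, and fell by 2.60 ± 0.29 (adjusted p = 0.000142). The groups did not overlap, and the call held in all 20 alternatives. Abcg8, a subunit of the sterol exporter into bile, fell by 1.13 ± 0.27 (adjusted p = 0.0387), but the call was lost without treated rat 1 or 3 or vehicle rat 1, 2, 3 or 5 (adjusted p 0.0641 to 0.256). Its partner Abcg5 differed by -0.99 ± 0.29 (adjusted p = 0.0865). Bile acid genes held 2 calls among 17, both higher, where 0.753% of all genes were. Cyp8b1, the sterol hydroxylase that directs synthesis to cholic acid, rose by 0.93 ± 0.15 (adjusted p = 0.00294), from 11.62 to 11.77 in vehicle to 12.47 to 12.89. Amacr, a racemase of bile acid side chains, rose by 0.37 ± 0.09 (adjusted p = 0.0490) and lost its call without vehicle rat 2, 3, 4 or 5 or any treated rat (adjusted p 0.0566 to 0.188). Cyp7a1, the rate-limiting enzyme of bile acid synthesis, read 10.61, 10.26, 9.70, 10.73 and 9.33 in vehicle and 12.07, 11.65 and 12.59 in treated rats. Although the groups did not overlap, its difference of 1.98 ± 0.74 was not called (adjusted p = 0.216).

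In the ATF4 and amino acid response list 6 of 26 members were higher, 1 lower and 19 not called. The median difference was 0.52, the highest of the 43 lists, which were chosen with earlier results known, and 24 of 26 members were above 0. Chac1, a stress-induced enzyme that degrades glutathione, read 7.84, 7.82, 8.05, 7.44 and 7.71 in vehicle and 9.83, 10.13 and 10.25 in treated rats, a rise of 2.30 ± 0.30 (adjusted p = 0.000557). Ddit4, an inhibitor of mTORC1 signalling, read 6.78, 7.02, 7.21, 7.64 and 6.97 in vehicle and 9.28, 9.06 and 9.44 in treated rats, and rose by 2.14 ± 0.37 (adjusted p = 0.00483). Trib3, a pseudokinase that feeds back on ATF4, rose by 1.91 ± 0.28 (adjusted p = 0.00154), from 7.95 to 9.21 in vehicle to 10.31 to 10.63. For all 3 genes the groups were separate by more than 1, and the calls held in all 20 alternatives. Mthfd2, of mitochondrial folate metabolism, rose by 1.04 ± 0.20 (adjusted p = 0.0101), a call lost without treated rat 2 (adjusted p = 0.0843). Slc7a5, a leucine transporter, rose by 0.68 ± 0.17 (adjusted p = 0.0486), and Eif4ebp1, a translation repressor, by 0.47 ± 0.11 (adjusted p = 0.0255).

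Cth, which makes cysteine from cystathionine, was the member that fell, by 0.46 ± 0.12 (adjusted p = 0.0465). Its call was lost without any of the 8 rats (adjusted p 0.0653 to 0.284). Slc7a5 lost its call without vehicle rat 1, 2, 3 or 4 or any treated rat (adjusted p 0.0706 to 0.214), and Eif4ebp1 without vehicle rat 3 or 5 or any treated rat (adjusted p 0.0513 to 0.148). Members with sizeable differences that were not called were Fgf21 (1.19 ± 0.38, adjusted p = 0.125), Asns (1.08 ± 0.31, adjusted p = 0.0881) and Atf4 itself (0.57 ± 0.15, adjusted p = 0.0606). Of 21 genes of the unfolded protein response 0 were called, a count close to the 2.22% called among all genes, and their median was 0.00. They lay between -0.45 for Xbp1 and 0.72 for Atf6.

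The composite element bound by ATF4 was searched as TGATGNAA on both strands. It lay in 2 of 6 promoters of the called members, Chac1 and Trib3, and in 3.82% of all promoters. Both matches are on the minus strand of the gene, with the first base at -167 in Chac1 and at -21 in Trib3, and appear in capitals as their reverse complement (GRCr8, chr3:126795881-126796180, plus strand, and chr3:161275484-161275783, minus strand). They are shown as the called members that hold the element.
Chac1: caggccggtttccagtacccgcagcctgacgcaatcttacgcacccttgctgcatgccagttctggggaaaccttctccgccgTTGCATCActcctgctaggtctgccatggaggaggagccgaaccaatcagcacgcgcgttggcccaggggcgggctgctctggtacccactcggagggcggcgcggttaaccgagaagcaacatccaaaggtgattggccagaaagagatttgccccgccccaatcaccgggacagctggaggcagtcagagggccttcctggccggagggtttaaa
Trib3: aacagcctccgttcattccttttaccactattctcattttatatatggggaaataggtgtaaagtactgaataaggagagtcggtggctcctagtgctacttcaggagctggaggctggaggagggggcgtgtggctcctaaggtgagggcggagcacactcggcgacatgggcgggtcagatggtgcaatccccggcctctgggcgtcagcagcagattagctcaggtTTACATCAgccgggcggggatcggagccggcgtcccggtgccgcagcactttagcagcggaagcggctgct

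**Figure D3:**
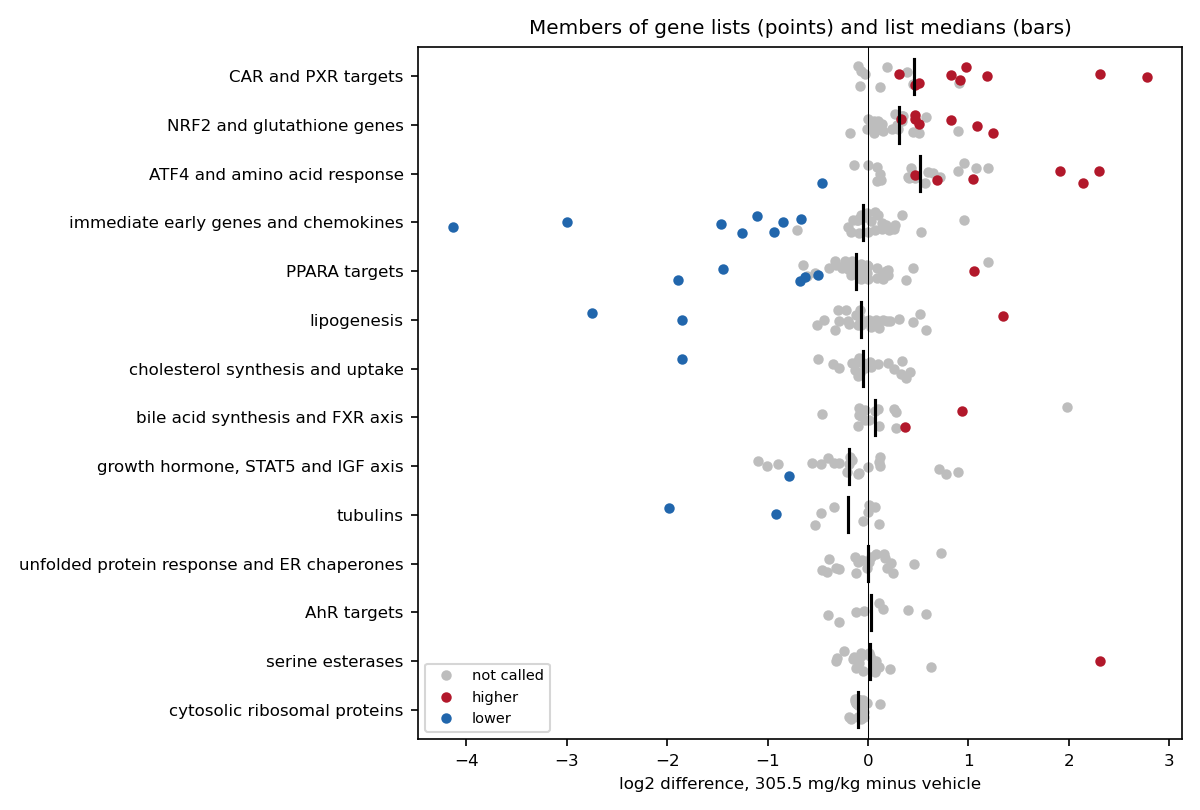
Log2 difference of each measured member (points) of 14 gene lists, with the list median as a black bar. Red points are called higher, blue points lower and grey points not called; the CAR and PXR, NRF2 and ATF4 lists have medians of 0.46, 0.31 and 0.52, while the 8 called immediate early genes and chemokines all lie below 0.

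Immediate early genes, which are switched on within minutes by growth factors and stress, and chemokines had 8 of 34 members lower and 0 higher. Cxcl1, a neutrophil-attracting chemokine, read 10.78, 11.43, 11.63, 12.53 and 11.46 in vehicle and 8.68, 6.77 and 6.84 in treated rats. Its fall of 4.13 ± 0.69 (adjusted p = 0.00388), or 17.6-fold, was the largest of all genes called lower, and treated rat 1 stood apart from the other treated rats. Egr1, a zinc finger factor, read 10.10, 11.41, 10.65, 10.72 and 10.39 in vehicle and 8.26, 7.14 and 7.59 in treated rats, and fell by 2.99 ± 0.52 (adjusted p = 0.00466). Dusp6, a phosphatase that switches off ERK, fell by 1.47 ± 0.24 (adjusted p = 0.00332), and Junb, an AP-1 subunit, by 1.11 ± 0.17 (adjusted p = 0.00243). These 4 calls held in all 20 alternatives. Ier5 fell by 0.67 ± 0.13 (adjusted p = 0.00932), Ier2 by 0.93 ± 0.21 (adjusted p = 0.0235), Zfp36, which destabilises cytokine mRNAs, by 0.85 ± 0.20 (adjusted p = 0.0356), and Ccn2, a matricellular growth factor, by 1.26 ± 0.32 (adjusted p = 0.0489).

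The calls of Ier5, Ier2, Zfp36 and Ccn2 were each lost on leaving out some single rats, although none of these falls changed direction. Ier5 lost its call without treated rat 2 or 3 (adjusted p = 0.0701 and 0.0798) and Ier2 without treated rat 2 or vehicle rat 2 or 3 (adjusted p 0.0519 to 0.153). The call of Ier5 was also lost with the mean over its probe sets (adjusted p = 0.315). Zfp36 lost it without any treated rat or vehicle rat 1 or 3 (adjusted p 0.0515 to 0.181), and Ccn2 without any treated rat or vehicle rat 1, 2, 3 or 4 (adjusted p 0.0519 to 0.201). The median of the list was -0.05, with 15 of 34 members above 0 and 26 not called, while the list mean minus the vehicle mean was -0.49 to -0.25 in treated rats, below every vehicle rat (-0.05 to 0.05). Fos (-0.10 ± 0.13, adjusted p = 0.801), the classic member of the class, was near background in both groups, and Atf3 (0.96), Ccn1 (0.53) and Dusp1 (0.21) had differences above 0 and were not called. A cyclic AMP element, TGACGTCA, lay in 1 of 8 promoters of the called members and in 1.91% of all promoters. That promoter was of Ier2, with the first base of the element at -66, and is printed with the element in capitals (GRCr8, chr19:40399123-40399422, plus strand).
Ier2: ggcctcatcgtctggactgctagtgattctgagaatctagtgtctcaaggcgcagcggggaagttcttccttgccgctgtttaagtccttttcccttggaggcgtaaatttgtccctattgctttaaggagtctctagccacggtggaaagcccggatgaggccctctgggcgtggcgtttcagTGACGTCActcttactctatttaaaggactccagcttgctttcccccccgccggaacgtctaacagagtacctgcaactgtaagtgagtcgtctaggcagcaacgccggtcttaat

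Cdkn1a, the gene of p21, an inhibitor of cyclin-dependent kinases, read 10.95, 11.33, 10.92, 11.49 and 10.16 in vehicle and 8.23, 8.34 and 8.24 in treated rats. It fell by 2.70 ± 0.37 (adjusted p = 0.000738), or 6.5-fold, and the treated rats lay close together. It was the only call among 13 p53 targets, whose median was 0.10, with Mdm2 at 0.13 and Ccng1 at 0.10. No gene of 38 in the cell cycle and mitosis list was called (median -0.12). With 2.22% of all genes called, the counts of both lists are close to the background. Genes that respond to glucocorticoids went in both directions, with 1 of 18 higher and 3 lower, where 0.753% and 1.47% of all genes were. Mt2A, a metallothionein, rose by 1.04 ± 0.22 (adjusted p = 0.0199), and Tsc22d3, the glucocorticoid-induced leucine zipper, fell by 0.76 ± 0.17 (adjusted p = 0.0216), with Cdkn1a and Angptl4 as the other falls. Both calls were lost without treated rat 1 or 2 (adjusted p 0.0648 to 0.149), and that of Mt2A also without vehicle rat 1 (adjusted p = 0.0514). Fkbp5 differed by -0.97, and Tat, an enzyme of tyrosine breakdown, by 1.35 ± 0.35 (adjusted p = 0.0525). Tat read 9.67 in treated rat 1 and 11.34 and 11.36 in the other treated rats, against 9.25 to 9.97 in vehicle.

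In the lipogenesis list 2 of 29 members were lower and 1 higher, where 1.47% and 0.753% of all genes were. Scd, the stearoyl-CoA desaturase, read 11.11, 11.66, 11.91, 9.45 and 10.81 in vehicle and 7.10, 8.69 and 8.92 in treated rats. It fell by 2.75 ± 0.51 (adjusted p = 0.00757), and the call was lost without treated rat 1 (adjusted p = 0.0642). Lpin1, a phosphatidate phosphatase and transcriptional coactivator, fell by 1.86 ± 0.40 (adjusted p = 0.0204), a call lost without vehicle rat 3 or any treated rat (adjusted p 0.0548 to 0.102). Thrsp, a lipogenic gene induced by thyroid hormone, rose by 1.34 ± 0.25 (adjusted p = 0.00735), from 10.85 to 11.62 in vehicle to 11.94, 12.48 and 12.92, and lost its call without treated rat 3 (adjusted p = 0.0622). The other 26 of 29 lipogenesis genes were not called, Fasn at 0.22, Acaca at 0.51 and Srebf1 at 0.57 among them. Of 21 cholesterol genes Lpin1 alone was called, near the 2.22% of all genes.

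PPARA is the receptor through which fatty acids switch on their own oxidation, and 5 of 42 of its targets were lower and 1 higher (median -0.12), where 1.47% and 0.753% of all genes were. Angptl4, an inhibitor of lipoprotein lipase, read 11.57, 11.52, 11.73, 11.23 and 11.46 in vehicle and 10.53, 9.42 and 8.88 in treated rats, and fell by 1.89 ± 0.25 (adjusted p = 0.000548). Pdk4, which restrains glucose oxidation, fell by 1.45 ± 0.28 (adjusted p = 0.00833), a call lost without treated rat 2 or 3 (adjusted p = 0.0517 and 0.0505). The lipid droplet genes Plin2 and Plin5 fell by 0.63 ± 0.14 (adjusted p = 0.0255) and by 0.68 ± 0.16 (adjusted p = 0.0274), and Pex11a, of peroxisome division, by 0.49 ± 0.12 (adjusted p = 0.0456). Cyp4a8, a fatty acid hydroxylase, rose by 1.05 ± 0.20 (adjusted p = 0.00765), while Cyp4a1 and Cyp4a3 differed by -0.52 and -0.61 and were not called. Lpl, lipoprotein lipase, was not on the lists and fell by 1.29 ± 0.20 (adjusted p = 0.00243). Plin2 lost its call without vehicle rat 2, 3 or 5 and without treated rat 1 or 2 (adjusted p 0.0504 to 0.14), and Plin5 without vehicle rat 1, 2 or 4 or any treated rat (adjusted p 0.0517 to 0.172). Pex11a lost it without vehicle rat 1, 2 or 3 or any treated rat (adjusted p 0.0521 to 0.153), and Cyp4a8 without treated rat 2 (adjusted p = 0.0648). The call of Pex11a was also lost with the mean over its probe sets (adjusted p = 0.305).

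In the growth hormone and IGF axis 1 of 22 members was called, near the 2.22% of all genes. Igfbp3, the main carrier of IGF in blood, fell by 0.79 ± 0.13 (adjusted p = 0.0032), from 10.04 to 10.41 in vehicle to 9.33 to 9.46. Socs2, induced by growth hormone, differed by -1.10 ± 0.38 (adjusted p = 0.175). Of 38 genes of amino acid catabolism 3 fell and 0 rose, where 1.47% of all genes fell. These were Gnmt, which uses up S-adenosylmethionine (fell by 0.63 ± 0.11, adjusted p = 0.00633), Prodh, which starts proline breakdown (fell by 0.63 ± 0.13, adjusted p = 0.0167), and Cth. The call of Prodh was lost without any of the treated rats (adjusted p 0.0555 to 0.0872). Clpx, a mitochondrial unfoldase that activates and degrades the first enzyme of heme synthesis, fell by 0.68 ± 0.09 (adjusted p = 0.000519). It was the only call among 14 heme genes, where 2.22% of all genes were called.

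Tubb2a, a beta tubulin gene, read 12.54, 12.53, 12.43, 12.49 and 12.61 in vehicle and 10.27, 10.43 and 10.90 in treated rats. It fell by 1.99 ± 0.23 (adjusted p = 0.000225), about 4.0-fold, against a vehicle SD of 0.07. Tuba4a, an alpha tubulin gene, fell by 0.91 ± 0.19 (adjusted p = 0.0141), a call lost without treated rat 1 (adjusted p = 0.112). The other 8 of 10 tubulin genes were not called and lay between -0.53 and 0.11, where 1.47% of all genes fell. Among the remaining largest rises were Chmp4c, of the ESCRT membrane scission machinery (1.41 ± 0.25, adjusted p = 0.00522), Nedd9, a scaffold of focal adhesions (1.34 ± 0.25, adjusted p = 0.00833), and Cers6, a ceramide synthase (1.23 ± 0.23, adjusted p = 0.00678). Others were Osbpl11, a lipid transfer protein gene (1.15 ± 0.20, adjusted p = 0.00504), Trim24, a transcriptional cofactor (1.15 ± 0.26, adjusted p = 0.0236), and Tbx3, a T-box repressor of pericentral hepatocytes (1.12 ± 0.19, adjusted p = 0.00449).

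Remaining large falls included Lgalsl, a galectin-like gene (fell by 1.71 ± 0.20, adjusted p = 0.000225), Trim36, a ubiquitin ligase gene (fell by 1.43 ± 0.17, adjusted p = 0.000225), and Stac3 (fell by 1.42 ± 0.32, adjusted p = 0.0236), known for its part in muscle excitation. The corepressor gene Irf2bp2 fell by 1.38 ± 0.26 (adjusted p = 0.00802), and Tcim by 1.31 ± 0.31 (adjusted p = 0.0305). Vehicle rat 4 was the highest rat for both Irf2bp2 and Tcim. Nedd9 lost its call without treated rat 2 or 3 (adjusted p = 0.0562 and 0.0557), Cers6 without treated rat 1 (adjusted p = 0.0549), and Irf2bp2 without treated rat 2 (adjusted p = 0.0562). Trim24 lost it without any treated rat or vehicle rat 1, 2 or 3 (adjusted p 0.0547 to 0.139), Stac3 without treated rat 1 or 2 or vehicle rat 1, 3 or 5 (adjusted p 0.0504 to 0.158), and Tcim without any treated rat or vehicle rat 2 or 4 (adjusted p 0.0503 to 0.139). Single calls in other lists were small falls. Hspe1, a mitochondrial chaperonin, fell by 0.37 ± 0.08 (adjusted p = 0.0202), Psmd14, a proteasome deubiquitinase, by 0.42 ± 0.10 (adjusted p = 0.0394), and Masp1, a complement protease, by 0.44 ± 0.08 (adjusted p = 0.00888). Both other probe sets of Masp1 had the opposite sign, and its call was lost without treated rat 2 (adjusted p = 0.0574). Hspe1 lost its call without treated rat 2 or 3 or vehicle rat 3 (adjusted p 0.0567 to 0.13), and Psmd14 without any of the 8 rats (adjusted p 0.0538 to 0.2). With the mean over probe sets the calls of Psmd14 and Masp1 were also lost (adjusted p = 0.157 and 0.961).

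Endothelial and stellate cell markers were below vehicle in their list means in all treated rats. All 13 measured endothelial markers had differences below 0, with a median of -0.41, and 2 fell, where 1.47% of all genes fell. Pecam1, an adhesion molecule of endothelial junctions, fell by 0.37 ± 0.08 (adjusted p = 0.0236), and Gpr182, a receptor of sinusoidal endothelium, by 0.53 ± 0.12 (adjusted p = 0.0296). Lyve1, a hyaluronan receptor, differed by -0.50 ± 0.14 (adjusted p = 0.0828), and Stab2 by -0.38. The summed linear signal of these markers was 7666 to 9430 in vehicle and 5260 to 7037 in treated rats, so the groups did not overlap. In bulk tissue, fewer cells of a type and less RNA per cell cannot be told apart. Of 15 stellate cell and fibroblast markers 14 were below 0 and 3 fell, with summed signals of 5299 to 6755 and 3792 to 4859. These were the receptor genes Pdgfrb (fell by 0.73 ± 0.15, adjusted p = 0.015) and Pdgfra (fell by 0.58 ± 0.12, adjusted p = 0.018) and the collagen crosslinker Lox, which read 6.79, 6.44, 7.54, 7.34 and 8.56 in vehicle and 5.19, 5.74 and 5.13 in treated rats. Lox fell by 1.98 ± 0.45 (adjusted p = 0.0264). For Pdgfrb 1 of 2 other probe sets had the opposite sign.

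Each of these marker calls was lost on leaving out some single rats, and none changed direction. Pecam1 lost its call without vehicle rat 1 or 3 or any treated rat (adjusted p 0.054 to 0.107), Gpr182 without any vehicle rat or treated rat 1 (adjusted p 0.0531 to 0.18), and Lox without vehicle rat 3 or any treated rat (adjusted p 0.0629 to 0.128). Pdgfrb lost it without treated rat 1 (adjusted p = 0.102) and Pdgfra without treated rat 1 or 2 (adjusted p = 0.0649 and 0.115). With the mean over probe sets the calls of Gpr182 and Pdgfrb were also lost (adjusted p = 0.185 and 0.206). All 11 Kupffer cell and macrophage markers were below 0 (median -0.34), but none was called and their summed signals overlapped (9422 to 13996 in vehicle, 9384 to 10724 in treated rats). No marker of cholangiocytes, lymphocytes, neutrophils, red cells, adipocytes or kidney tubules was called. The neutrophil list mean still lay below every vehicle rat in all treated rats (-0.37 to -0.21, vehicle from -0.20), with 4 of 5 markers near background. Summed signals of lymphocyte markers did not overlap either (980 to 1322 in vehicle, 909 to 957 in treated rats). Their list means did overlap (-0.08 to 0.09 in vehicle, -0.10 to -0.05 in treated rats). The lymphocyte median was 0.01, with 6 markers above and 6 below 0, and 7 of 12 were near background. Summed signals of exocrine pancreas markers were 2020 to 2402 in vehicle and 1384 to 1574 in treated rats. Of 9 exocrine pancreas markers Cela1 alone fell, by 0.80 ± 0.15 (adjusted p = 0.00821), a call lost without treated rat 3 (adjusted p = 0.06). The other 8, among them Prss1, Pnlip and Amy2a3, had vehicle means of 3.69 to 6.52, and 6 of them lay under log2 6. The part of cell makeup in the differences given above was not tested.

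**Figure D4:**
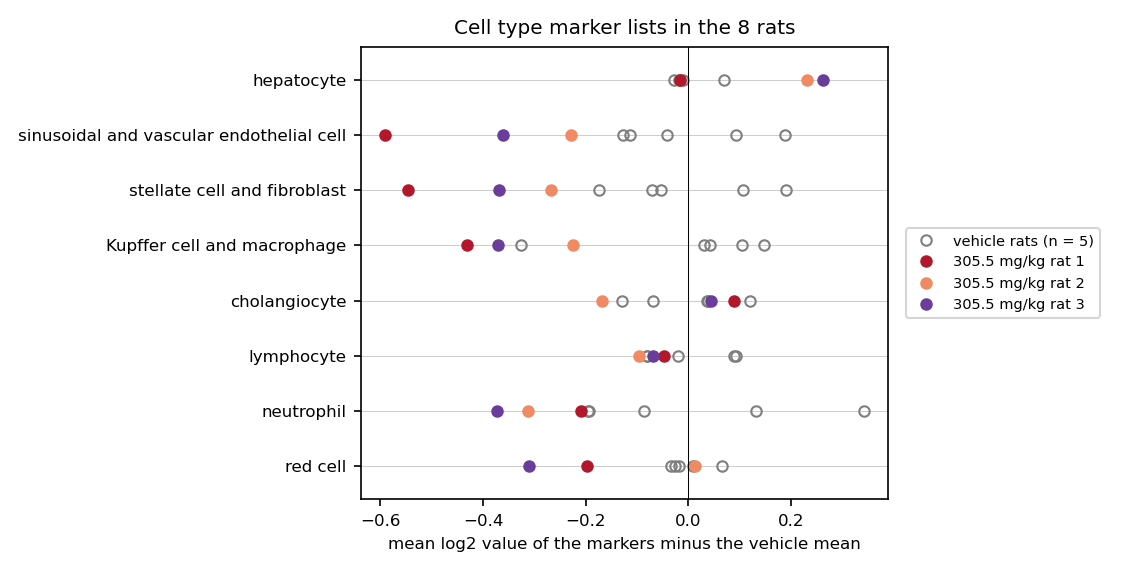
Mean log2 value of the measured markers of 8 cell types in each rat, minus the vehicle mean. Open circles are the 5 vehicle rats and filled circles the 3 treated rats. The endothelial, stellate cell and neutrophil means of all treated rats lie below every vehicle rat, with 4 of 5 neutrophil markers near background. Kupffer cell, cholangiocyte and lymphocyte means overlap.

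Several lists held no call at all. None of 21 acute phase protein genes, 21 genes of gluconeogenesis and insulin response, 13 periportal genes and 21 cytosolic ribosomal protein genes was called, with medians of 0.01, -0.01, 0.02 and -0.10. With 2.22% of all genes called, a count of 0 in such a list is close to the background, and a gene that was not called is not shown to be unchanged. The only pericentral gene called of 14 was Tbx3, while Glul and Cyp2e1 differed by -0.23 and -0.15. Of 29 nuclear receptor genes Nr1d1 and Nr1d2 alone were called, and the genes of PXR (Nr1i2, -0.20) and PPAR alpha (Ppara, -0.20) were not.

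The neighbouring doses place these values on the dose scale. Against 153 mg/kg no gene passed the test in limma (0.0% of 14217; 1338 genes or 9.41% had an unadjusted p under 0.05, and the smallest adjusted p was 0.145). With array weights 67 genes were higher and 143 lower. Means of Nr1d1 were 9.19 at both doses and those of Hsd17b2 12.75 and 13.02, with differences of 0.00 ± 0.24 and 0.27 ± 0.35. Ces2c read 10.07, 10.73 and 10.10 at 153 mg/kg, below the 3 rats at 305.5 mg/kg, and its difference of 0.93 ± 0.17 was not called (adjusted p = 0.152). Cxcl1 differed by -0.97 ± 0.78 and Chac1 by 0.68 ± 0.34. Both doses were set against the same vehicle rats, so their differences from vehicle are not independent.

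In the direct comparison with 611 mg/kg, 5 genes (0.0352%) had higher levels at 305.5 mg/kg and 41 (0.288%) had lower ones, and 2281 genes (16.0%) had an unadjusted p under 0.05. Mitosis genes led the lower side. Ccna2, the cyclin of S phase and mitotic entry, read 4.97, 4.26 and 4.78 at 305.5 mg/kg and 7.54, 6.49 and 6.63 at 611 mg/kg, a difference of -2.22 ± 0.31 (adjusted p = 0.00387). Vehicle rats read 5.44, 5.48, 5.30, 4.13 and 4.96, so the lower dose overlapped vehicle (-0.39 ± 0.27, adjusted p = 0.597). Cdkn3, a cell cycle phosphatase, Ect2, which drives cytokinesis, the proliferation antigen gene Mki67 and the checkpoint kinase gene Bub1 were lower by -2.41, -2.31, -1.83 and -1.70 (adjusted p from 0.00214 to 0.0225) and were not called against vehicle at 305.5 mg/kg (differences of -0.69 to 0.06). Ect2, Ccna2, Mki67 and Bub1 were near background at 305.5 mg/kg. Cdkn3 lost its call without 305.5 mg/kg rat 2 or 3 or 611 mg/kg rat 1 (adjusted p 0.0553 to 0.165), and Ect2 without 305.5 mg/kg rat 2 or 3 (adjusted p = 0.0734 and 0.0603).

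On the higher side, Chac1 read 9.83, 10.13 and 10.25 at 305.5 mg/kg and 8.73, 8.60 and 7.91 at 611 mg/kg, a difference of 1.66 ± 0.34 (adjusted p = 0.0467). The call was lost in 12 of 18 alternatives, among them without any rat of 305.5 mg/kg or rat 2 or 3 of 611 mg/kg (adjusted p 0.0644 to 0.229). Trib3 and Ddit4 had differences of 0.84 ± 0.32 and 0.73 ± 0.42, neither called (adjusted p = 0.231 and 0.393). Hbb, a globin gene (1.47), Spata2L (0.59), Sh3gl2 (0.48) and LOC100912629 (0.47) made up the other calls. The latter 2 were near background. Each lost its call without at least 3 single rats (adjusted p 0.0506 to 0.251): Hbb without 305.5 mg/kg rat 1 or 2 or 611 mg/kg rat 2 or 3, Spata2L without any rat of 305.5 mg/kg or 611 mg/kg rat 2 or 3, Sh3gl2 without any rat of 305.5 mg/kg, and LOC100912629 without 305.5 mg/kg rat 1 or 3 or any rat of 611 mg/kg. The array of 611 mg/kg rat 2 stood apart, with a GAPDH 3' minus 5' difference of 2.89. Without it 1 gene was higher, and the part of RNA quality in these calls was not tested. Ces2c and Abcc3 were not called between the doses (-0.49 ± 0.17 and -0.77 ± 0.41, adjusted p = 0.211 and 0.361).

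**Figure D5:**
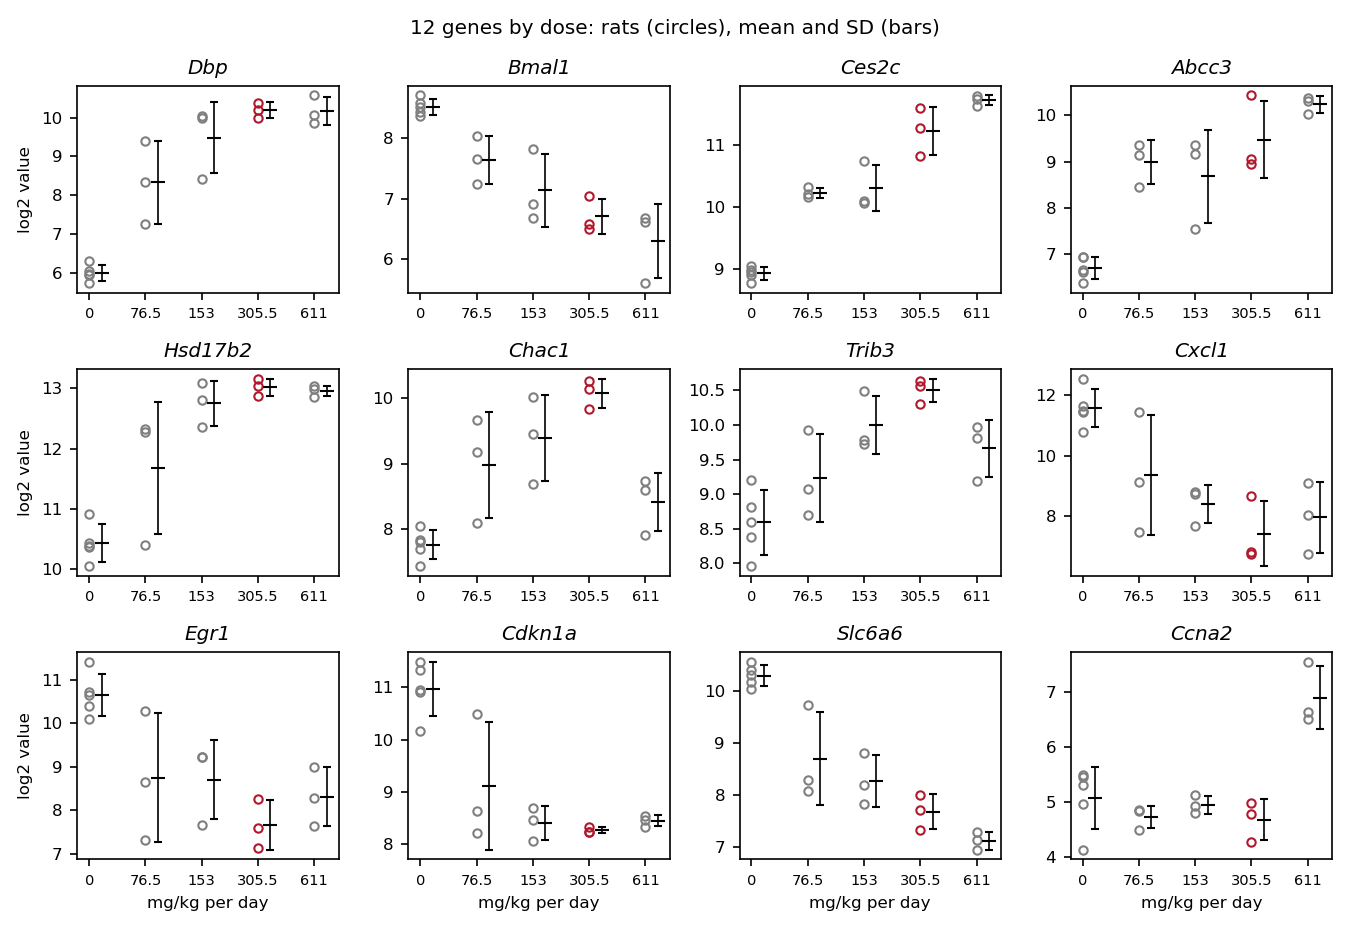
Deposited log2 values of 12 genes (vertical axes, a scale for each gene) at 0, 76.5, 153, 305.5 and 611 mg/kg per day, with a circle for each rat, red at 305.5 mg/kg, and the mean and SD as bars. Every rat above the vehicle range of Ccna2 was at 611 mg/kg, Chac1 has its highest mean, 10.07, at 305.5 mg/kg, and Ces2c rises from 8.92 in vehicle to 11.23 at 305.5 and 11.72 at 611 mg/kg.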

How the data were processed

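Liver RNA of each rat was hybridised to 1 Affymetrix array. The authors deposited log2 values made with RMA, per the submitters' processing notes, 1 per probe set and array. RMA corrects background, normalizes by quantiles and summarises probes. The RMA software, its version and the scan dates: not given in the sources used here. Of 31099 probe sets, 57 were controls, 20826 carried 1 gene symbol, 436 several and 9780 none, and 20758 matched the RefSeq gene table by gene ID. The brightest probe set of each of 14217 genes was used, with no filter on signal.

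Groups were taken from the array titles. All 17 arrays were fitted with limma 3.58.1 in R 4.3.3 (lmFit, eBayes with trend), with p adjusted by Benjamini-Hochberg over all genes. A called gene had an adjusted p under 0.05. The fit was tested on simulated data. RNA quality was compared by two-sided exact permutation over 56 splits. That the rats are separate animals is per the labels. The number of arrays limits the precision. The labels do not pair rats by replicate number. Deviations of same-numbered rats correlated at -0.16, -0.19 and 0.05, and those of other pairs at -0.10 to 0.21. So few pairs cannot show whether equal numbers share a batch or day, which was not tested.

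Named genes were the 20 largest rises and falls among called genes with no treated rat inside the range of vehicle rats, the 5 largest on each side between neighbouring doses, and, from each of 43 lists, all called members or, where over 8 passed, the 8 with the smallest p. Any other gene is marked as chosen with its values in view, or is a member that was not called. Members and lists were chosen with earlier results of these data known. Listed genes without a probe set of a single symbol were not analysed here. Promoters and their GRCr8 coordinates come from RefSeq. A promoter was printed where a called member of a list held the element tied to that list. A match is a description of letters, not of binding.

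Alternatives were the mean over probe sets, every probe set, a second quantile normalization, array medians subtracted, omission of the dimmest 40%, eBayes without trend or robust, array weights, the 2 groups alone, a replicate block, leaving out each rat or the 3 arrays that stood apart (76.5 mg/kg rats 2 and 3, 611 mg/kg rat 2), and an adjusted p under 0.01.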

Additional observations from a re-analysis of the deposited data

Results flagged for a closer look

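Among 90 named genes, 5 had a vehicle rat far from the other 4, by Dixon's test, which flags about 1 in 20 groups by chance. Osbpl11 read 8.60 in vehicle rat 5, against 8.40 to 8.45 in the others. Vehicle rat 4 was the highest for Irf2bp2 (11.06), Tcim (9.58) and Zfp36 (9.84) and the lowest for Cela1 (10.68). None of the treated rats fell within the range of the vehicle rats for these 5 genes. For Osbpl11, Irf2bp2 and Tcim the rule that named them required this.

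Chac1 differed between the 2 highest doses, by 1.66 on the log2 scale, higher at 305.5 than at 611 mg/kg (limma, Benjamini-Hochberg adjusted p = 0.0467).

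Probe sets without a single gene symbol were not part of the gene comparison. Of 10216 such probe sets, 15 rose and 35 fell at 305.5 mg/kg against vehicle (0.489%; limma, adjusted over 31042 probe sets), with differences of up to 2.27 and down to -1.84.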

How the results depend on the processing

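The number of genes called against vehicle (107 higher, 209 lower) changed by over 1.5 times with array weights (438 and 676), with the 2 groups alone (237 and 401), without the 3 arrays that stood apart (292 and 486), and at an adjusted p under 0.01 (45 and 75). Leaving out 1 rat gave 49 to 85 higher and 86 to 184 lower genes. With a replicate block it was 60 and 138, although the labels do not pair the rats by number. The block gave 2 higher and 48 lower genes against 611 mg/kg and 0 and 0 against 153 mg/kg. Against 153 mg/kg, where 0 genes were called by limma, array weights gave 67 higher and 143 lower, and leaving out 1 rat 0 to 1 in each direction. Against 611 mg/kg (5 and 41) array weights gave 74 and 259, the 2 groups alone 1 and 11, the dimmest 40% left out 1 and 12, and an adjusted p under 0.01 gave 0 and 12. With every probe set, and without the 3 arrays that stood apart, 2 genes were higher. Leaving out 1 rat gave 1 to 9 higher and 10 to 55 lower. The 2 groups alone or fewer arrays change how many arrays the spread is estimated from, and a stricter threshold calls fewer genes by construction. A replicate block takes vehicle rats 4 and 5, the only rats with those numbers, out of the difference from vehicle. The cause of the other changes was not tested.

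Of 81 genes named against vehicle, 35 kept their call in every alternative, 46 lost it in some, each of them without at least 1 single rat, and 0 changed direction. The genes that lost it without a rat are given in the report. The mean over probe sets ended 12 of the 81 calls, every probe set 9, robust eBayes 6, eBayes without trend 3, medians subtracted 2, the 2 groups alone 1, a repeated quantile normalization 1 and the replicate block 20. All of these genes also lost the call without some single rat. Of genes outside the rule, Tef, Cry2, Sqstm1 and Tpm4 lost their calls with the mean over probe sets (adjusted p 0.123 to 0.2). Cyp2c6v1 lost its call with a repeated quantile normalization (adjusted p = 0.131) and with eBayes without trend (adjusted p = 0.059). The replicate block ended the calls of Cry2, Sgpl1 and Vim (adjusted p 0.0525 to 0.0685). The 3 rats per dose limit the precision of every difference. Signal near background bounds the sizes of 36 called genes.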

Other observations

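Other called genes, all named after their values were seen, are given here as values. Aox1, the aldehyde oxidase gene, rose by 0.74 ± 0.10 (limma, Benjamini-Hochberg adjusted p = 0.000486), from 12.14 to 12.35 in vehicle to 12.85 to 13.17. Sgpl1, which degrades sphingosine phosphate, rose by 0.84 ± 0.16 (adjusted p = 0.00757), Hells, a chromatin remodeller, by 1.01 ± 0.17 (adjusted p = 0.00377), and the autophagy receptor gene Sqstm1 by 0.41 ± 0.09 (adjusted p = 0.0236). Sgpl1 lost its call without treated rat 1 (adjusted p = 0.0609). Sqstm1 lost it without vehicle rat 1, 2 or 3 or any treated rat (adjusted p 0.0523 to 0.12), and 1 of its 3 other probe sets had the opposite sign.

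Actg1, a cytoplasmic actin, read 12.61, 12.97, 12.75, 12.65 and 12.77 in vehicle and 11.57, 11.93 and 12.11 in treated rats, and fell by 0.88 ± 0.17 (adjusted p = 0.00802). Tpm4, a tropomyosin, fell by 0.70 ± 0.11 (adjusted p = 0.00279), Vim, the filament protein vimentin of mesenchymal cells, by 0.59 ± 0.11 (adjusted p = 0.00802), and Tmsb4x, which binds actin monomers, by 0.41 ± 0.09 (adjusted p = 0.0147). Syne1, which links the nucleus to actin, fell by 1.18 ± 0.11 (adjusted p = 1.67e-05), although 1 of its 3 other probe sets had the opposite sign. Tpm4 lost its call with the mean over probe sets (adjusted p = 0.158) and Vim with the replicate block (adjusted p = 0.0642). Actg1 lost its call without treated rat 1 (adjusted p = 0.0689) and Tmsb4x without treated rat 1 or 3 (adjusted p = 0.105 and 0.0517). Stellate and endothelial markers were also lower in these rats, and the part of cell makeup in these falls was not tested.

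Tfrc, the transferrin receptor gene, fell by 0.78 ± 0.15 (adjusted p = 0.00776), and Steap3, an endosomal ferrireductase gene, by 0.84 ± 0.16 (adjusted p = 0.00869), the latter call being lost without treated rat 2 or 3 (adjusted p = 0.0506 and 0.0503). Irf1, a transcription factor of interferon responses, fell by 1.17 ± 0.18 (adjusted p = 0.00156). The acyl transferase genes Crot and Crat, which make carnitine esters, fell by 0.77 ± 0.13 (adjusted p = 0.0044) and by 0.59 ± 0.11 (adjusted p = 0.00658), and Fabp5, a fatty acid binding protein gene, by 1.16 ± 0.18 (adjusted p = 0.00188). All 3 treated rats lay below the vehicle range for each gene of this paragraph.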
